A study of Mus musculus with 9 samples.

Results

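Some forkhead genes of mammals lie in paired clusters that descend from an ancestral cluster, and the mouse has Foxq1, Foxf2 and Foxc1 on chromosome 13 and Foxf1a, Foxc2 and Foxl1 on chromosome 8. All RING1B peaks that the deposited lists assign to these 6 genes are described here, chosen by an exact match of the nearest-gene name. The genes carried 18 of 4157 peaks, of which 6 of 1810 were in Eed-/- mESCs and 12 of 2347 in Eed+/+ mESCs.

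Eed-/- mESCs lack EED, a core subunit of PRC2, and have no H3K27me3, and Eed+/+ mESCs are the wild type. Both are labelled as C57BL/6 embryonic stem cells, and the methods describe their culture on gelatin and inactivated embryonic fibroblasts. The series labels 9 samples (3 of Eed-/- RING1B, 1 of Eed+/+ RING1B, 3 of Eed+/+ input, and 1 of CBX7 for each genotype, not analysed here). Chromatin was immunoprecipitated with an antibody to RING1B, the recovered DNA was sequenced, and peaks were called once per genotype, so no value below has a replicate error and no test between genotypes was possible.

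RING1B is the catalytic subunit of PRC1, which monoubiquitylates histone H2A, and PRC1 with a CBX subunit binds the H3K27me3 that PRC2 deposits. Genes for developmental transcription factors are typical Polycomb targets in mESCs, and their CpG islands carry both complexes. FOXC1 and FOXC2 act in the development of the eye, heart and vessels, FOXF1 (Foxf1a in the lists) and FOXF2 are Hedgehog-responsive factors of gut and lung mesenchyme, FOXL1 acts in gut mesenchyme, and FOXQ1 is required for normal hair structure in the mouse.

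The Eed-/- immunoprecipitate had 70343706 mapped tags and the Eed+/+ immunoprecipitate 16814546, as given in the methods, so the Eed-/- library was 4.18 times as deep. Every peak in both lists held more than 100 tags. A level is given below as tags per kb of peak per 1000000 mapped tags, without subtraction of input, with an exact 95% Poisson interval that covers counting error only. Over all peaks the median level was 1.32 in Eed-/- cells and 4.80 in Eed+/+ cells, and Eed-/- peaks had a median width of 2155 bp, against 2665 bp for Eed+/+ peaks. Fold enrichment is the ratio over background that the peak caller gave. The lists hold no expression values, so the stem cell label could not be checked by markers.

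The summits, where tag coverage is highest, fell inside the coding exons of 5 of the 6 genes in Eed+/+ cells, at Foxq1, Foxf2, Foxc1, Foxf1a and Foxc2. Foxl1 could not be assessed, since the annotation of mm9 gives it no coding exon, and its summits lay inside the gene in both genotypes. With the Foxl1 peaks counted as not coding, 4 of 6 Eed-/- summits (37.7% of all Eed-/- peaks) and 5 of 12 Eed+/+ summits (40.2% of all Eed+/+ peaks) lay in a coding exon. The 151 bases centred on these Eed+/+ summits are shown because they are the positions of strongest RING1B signal in the clusters and show how dense CpG is there. They are written on the + strand of mm9, which is the coding strand of all 6 genes, with CpG in capitals.
Foxc1, chr13:31899109-31899259: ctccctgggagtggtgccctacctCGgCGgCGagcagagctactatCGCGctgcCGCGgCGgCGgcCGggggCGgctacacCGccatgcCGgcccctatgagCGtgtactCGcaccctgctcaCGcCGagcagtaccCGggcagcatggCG
Foxf2, chr13:31718763-31718913: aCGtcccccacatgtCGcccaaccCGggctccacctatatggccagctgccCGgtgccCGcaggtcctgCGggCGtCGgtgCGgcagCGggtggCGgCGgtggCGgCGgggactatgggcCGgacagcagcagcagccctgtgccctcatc
Foxq1, chr13:31651174-31651324: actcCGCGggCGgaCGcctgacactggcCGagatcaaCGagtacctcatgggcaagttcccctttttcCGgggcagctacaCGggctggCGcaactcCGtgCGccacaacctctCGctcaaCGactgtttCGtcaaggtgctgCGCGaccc
Foxc2, chr8:123641336-123641486: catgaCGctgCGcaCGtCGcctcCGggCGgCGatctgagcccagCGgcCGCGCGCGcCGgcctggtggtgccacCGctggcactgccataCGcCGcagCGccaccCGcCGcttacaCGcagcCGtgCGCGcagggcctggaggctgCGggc
Foxf1a, chr8:123608853-123609003: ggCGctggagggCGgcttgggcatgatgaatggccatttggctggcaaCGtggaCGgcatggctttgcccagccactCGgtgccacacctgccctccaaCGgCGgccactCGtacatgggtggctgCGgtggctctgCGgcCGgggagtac
The window held 24 CpG at Foxc2, 19 at Foxc1, 16 at Foxq1, 15 at Foxf2 and 11 at Foxf1a. The Eed-/- summit fell in the same window at Foxc1, Foxq1 and Foxf1a, at base 23, base 23 and base 54 counted from the 5′ end. Foxc2, with the most CpG, was the gene that had no Eed-/- peak.

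**Figure D1:**
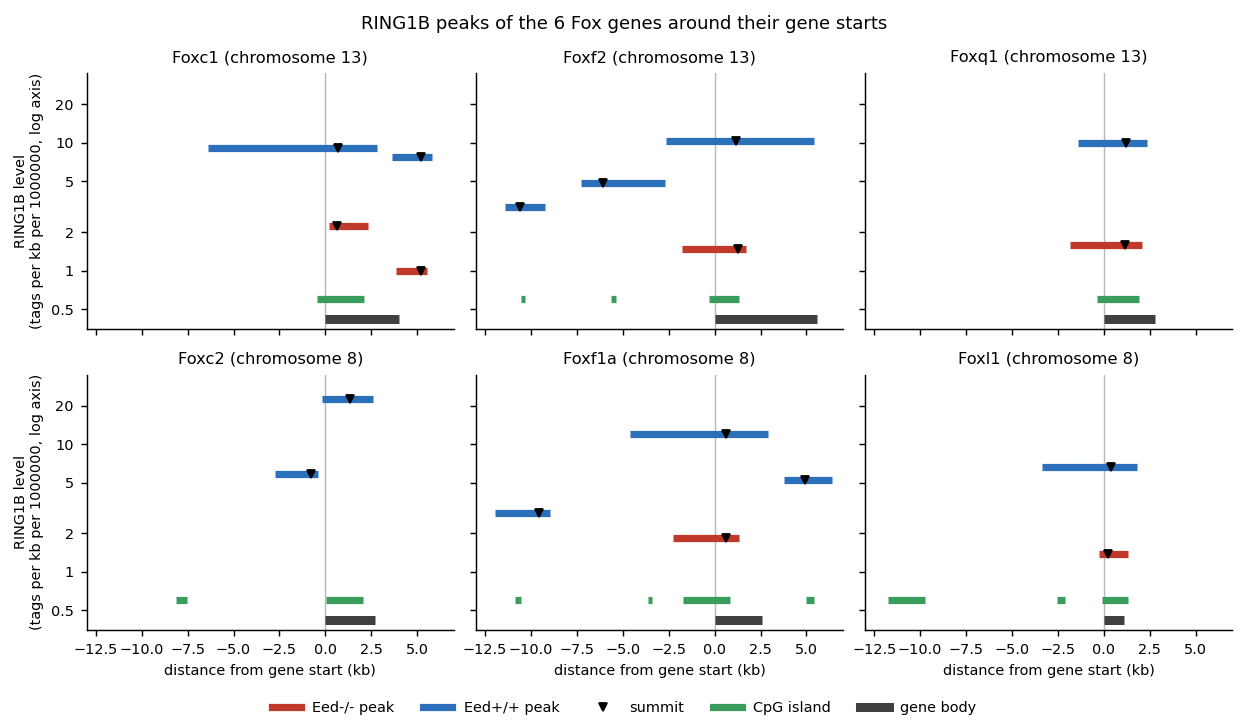
RING1B peaks of each gene, with distance from the gene start in kb on the x axis and the level in tags per kb per 1000000 mapped tags on a log y axis. Red lines are Eed-/- peaks, blue lines are Eed+/+ peaks, black triangles are summits, green bars are CpG islands and dark bars are gene bodies. Each Eed-/- line lies under an Eed+/+ line, and Foxc2 has Eed+/+ lines only.

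Every Eed-/- peak of the clusters lay at a position that also had RING1B in Eed+/+ cells, whereas 6 of the Eed+/+ peaks had no Eed-/- counterpart. Of the Eed-/- peaks, 6 of 6 were overlapped by an Eed+/+ peak (100%, exact 95% interval 54.1 to 100%), against 73.1% of all Eed-/- peaks. Of the Eed+/+ peaks, 6 of 12 were overlapped by an Eed-/- peak (50.0%, 21.1 to 78.9%), against 53.1% of all Eed+/+ peaks. In both genotypes the share over all peaks lay inside the interval of the Fox genes. Neighbouring peaks of a gene are not independent, so this is a description and not a test. Foxc1, Foxf2, Foxq1, Foxf1a and Foxl1 had a peak in both genotypes, and Foxc2 had none in Eed-/- cells.

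At Foxc1 RING1B covered 3798 bp in 2 Eed-/- peaks and 11347 bp in 2 Eed+/+ peaks. The gene lies on chromosome 13 from 31898515 to 31902504 (mm9, + strand). The Eed-/- peak over the gene ran from 31898737 to 31900825. It held 328 tags, its fold enrichment was 6.57 and its level 2.23 (2.00 to 2.49). The Eed+/+ peak there ran from 31892133 to 31901299. It held 1408 tags, its fold enrichment was 43.3 and its level 9.14 (8.66 to 9.63). The Eed-/- level was the highest of the 6 Eed-/- peaks and stood at the 98.1 percentile of all Eed-/- peaks, and the peak did not reach the gene start, beginning 222 bp downstream. The Eed-/- to Eed+/+ ratio of levels was 0.244 (exact conditional binomial 95% interval 0.216 to 0.276). In bulk chromatin, fewer cells with RING1B at a site and less RING1B per cell cannot be told apart.

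A further Foxc1 peak lay across the 3′ end of the gene in both genotypes, and the island search gave no CpG island there. That search keeps only the best-scoring stretch of a run, so it can miss an island close behind that of Foxc1. The Eed-/- peak had 62.2% GC and 7.20 CpG per 100 bp. In Eed-/- cells the downstream peak ran from 31902352 to 31904060 with 120 tags and a level of 0.998 (0.828 to 1.19), which is low for that list (4.86 percentile). In Eed+/+ cells it ran from 31902158 to 31904337 with 284 tags and a level of 7.75 (6.87 to 8.70), which is high for that list (84.6 percentile). The ratio of levels was 0.129 (0.103 to 0.160), below that of the peak over the gene, but this order rests on the separately called widths. The ratios of fold enrichment were close, at 0.137 downstream and 0.152 at the gene. Whole-peak tags per 1000000 mapped tags were 1.71 in Eed-/- and 16.9 in Eed+/+ cells downstream, and 4.66 in Eed-/- and 83.7 in Eed+/+ cells at the gene, which turns the order round. The summits of this downstream peak lay 13 bp apart.

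Foxc2 had the highest level of all 2347 Eed+/+ peaks and no Eed-/- peak. The gene lies on chromosome 8 from 123640071 to 123642792 (mm9, + strand). The Eed+/+ peak over it ran from 123639904 to 123642639 and held 1031 tags in 2736 bp, which is a level of 22.4 (21.1 to 23.8), and the next highest Eed+/+ level was 18.0. Its fold enrichment of 70.4 ranked 6 in the list. The other Eed+/+ peak of Foxc2, from 123637323 to 123639652, ended 251 bp before it and had 227 tags, with 23.0 as fold enrichment and a level of 5.79 (5.06 to 6.60).

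The nearest Eed-/- peaks to the Foxc2 gene peak were those of Foxf1a, 30294 bp upstream, and Foxl1, 8911 bp downstream. Of the 234 Eed+/+ peaks in the top 10% by level, 211 (90.2%) were overlapped. The 544 Eed-/- peaks within 500 bp of the Foxc2 width had levels of 0.849 to 2.92 with a median of 1.31. The Eed-/- list gives no value at Foxc2, so no ratio was computed, and a signal under the authors' thresholds cannot be told apart from none.

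Forkhead genes share a conserved DNA-binding domain, and the lists were made from tags with a unique position in the genome. The longest run of identical bases between the Eed+/+ gene peaks of Foxc1 and Foxc2 is 53 bp and that between Foxf2 and Foxf1a is 41 bp, all in coding exons, and they are shown because a tag wholly inside such a run has no unique position. The tag length is not given in the sources used here. Both are printed 5′ to 3′ on the + strand with CpG in capitals.
Foxc1, chr13:31899515-31899567, and Foxc2, chr8:123640932-123640984: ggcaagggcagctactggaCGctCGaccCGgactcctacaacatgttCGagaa
Foxf2, chr13:31718363-31718403, and Foxf1a, chr8:123608557-123608597: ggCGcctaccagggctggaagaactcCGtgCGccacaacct
Between Foxq1 and Foxl1 the longest run was 15 bp. The Foxc1 run lies inside an Eed-/- peak and the Foxc2 run does not, and both lie inside Eed+/+ peaks. The part of shared sequence in the peak calls was not tested.

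The Foxf genes had 1 Eed-/- peak and 3 Eed+/+ peaks on each chromosome. Foxf2 lies on chromosome 13 from 31717685 to 31723272 and Foxf1a on chromosome 8 from 123608286 to 123610851 (mm9, + strand). The Eed-/- peak of Foxf2 ran from 31715924 to 31719369. It held 359 tags, with 5.67 as fold enrichment and a level of 1.48 (1.33 to 1.64). The Eed+/+ peak around it ran from 31715027 to 31723092. It held 1401 tags, with 29.8 as fold enrichment and a level of 10.3 (9.80 to 10.9). In Eed+/+ cells this peak covered the gene start and nearly the whole gene, while the Eed-/- peak ended 1684 bp into the gene. The ratio of levels was 0.143 (0.127 to 0.161).

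The Eed-/- peak of Foxf1a ran from 123606035 to 123609609. It held 462 tags, with 6.91 as fold enrichment and a level of 1.84 (1.67 to 2.01). The Eed+/+ peak around it ran from 123603676 to 123611201. It held 1508 tags, with 48.7 as fold enrichment and a level of 11.9 (11.3 to 12.5). Its ratio of 0.154 (0.139 to 0.171) had an interval that overlapped that of Foxf2. Both peaks also covered the start of the long noncoding RNA 1110050K14Rik, which RefSeq lists as Fendrr and which is transcribed away from Foxf1a. The Foxf2 level divided by the Foxf1a level was 0.806 (0.700 to 0.927) in Eed-/- cells and 0.867 (0.806 to 0.933) in Eed+/+ cells, so that Foxf2 was the lower of the 2 in both.

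The flanking peaks of the Foxf genes were found in Eed+/+ cells and had no overlap in Eed-/- cells. At Foxf2 these ran from 31706288 to 31708452 (114 tags, level 3.13) and from 31710409 to 31714988 (370 tags, level 4.81), both upstream of the gene. At Foxf1a they ran from 123596311 to 123599320 (146 tags, level 2.88), upstream, and from 123612047 to 123614666 (231 tags, level 5.24), downstream. Their fold enrichments were between 10.5 and 16.4, against 29.8 and 48.7 for the gene peaks. With the upstream Foxc2 peak they make up 5 of the 6 Eed+/+ peaks without an Eed-/- peak, and the Foxc2 gene peak is the other.

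Foxq1 was the gene whose peak was as wide in Eed-/- as in Eed+/+ cells. It lies on chromosome 13 from 31650039 to 31652839 (mm9, + strand). The Eed-/- peak ran from 31648189 to 31652144 (3956 bp, 440 tags), and its fold enrichment was 4.98 and its level 1.58 (1.44 to 1.74). The Eed+/+ peak ran from 31648606 to 31652371 (3766 bp, 634 tags), and its fold enrichment was 24.1 and its level 10.0 (9.25 to 10.8). Each of these peaks also covered the start of A530084C06Rik, annotated as protein-coding on the opposite strand. That start lay 6 bp from the Eed-/- summit and 47 bp from the Eed+/+ summit, while the Foxq1 start lay 1157 bp and 1210 bp away. The ratio of levels was 0.158 (0.140 to 0.179), an interval that overlapped those of both Foxf genes.

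Foxl1 lies on chromosome 8 from 123651840 to 123652929 (mm9, + strand), is annotated as a pseudogene in the GENCODE release of that build and is protein-coding in RefSeq. The Eed-/- peak ran from 123651551 to 123653132. It held 153 tags, its fold enrichment was 4.64 and its level 1.38 (1.17 to 1.61). The Eed+/+ peak ran from 123648475 to 123653624. It held 578 tags, its fold enrichment was 17.2 and its level 6.67 (6.14 to 7.24). The ratio of levels was 0.206 (0.171 to 0.247). Foxq1 and Foxl1 have no counterpart in the other cluster. The Foxq1 level divided by the Foxl1 level was 1.15 (0.955 to 1.39) in Eed-/- cells and 1.50 (1.34 to 1.68) in Eed+/+ cells.

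**Figure D2:**
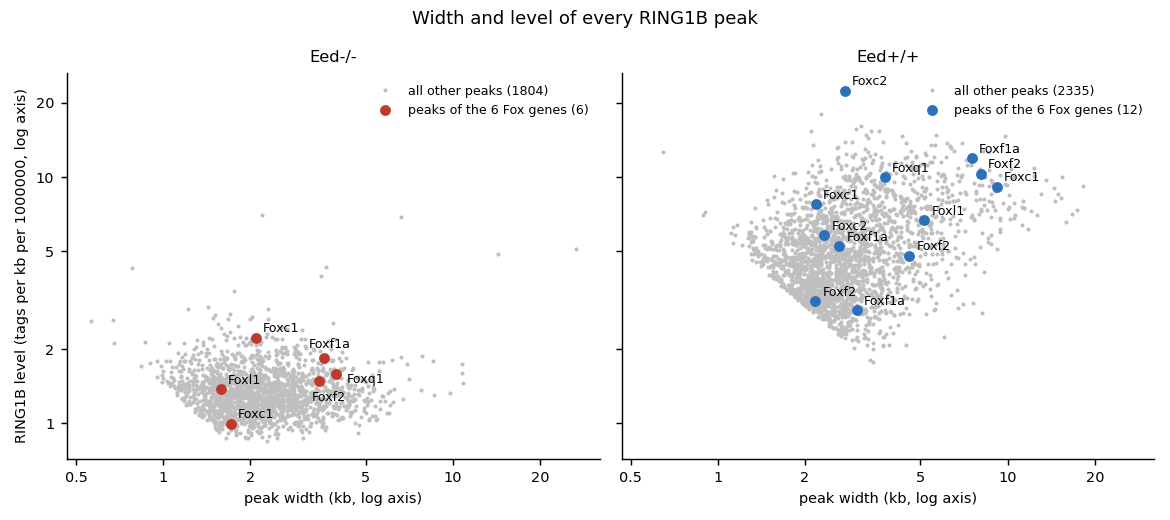
Level in tags per kb per 1000000 mapped tags against peak width in kb, both on log axes, for every peak in Eed-/- cells (left) and Eed+/+ cells (right). Grey points are all other peaks and coloured points are peaks of the 6 Fox genes, with Foxc2 at 22.4 above all other Eed+/+ peaks and the Eed-/- points between 0.998 and 2.23.

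Across the 6 overlapping pairs the level was lower in Eed-/- than in Eed+/+ cells in 6 of 6, as it was in 1247 of 1247 pairs of the whole lists (100%). The median ratio of the 6 pairs was 0.156 with a range of 0.129 to 0.244, and the median of all pairs was 0.225 with quartiles of 0.179 and 0.303. The 4 pairs of Foxc1 (downstream), Foxf2, Foxf1a and Foxq1 lay below the lower quartile of all pairs, and those of Foxl1 and the Foxc1 gene lay between the quartiles. Pairs with an Eed+/+ peak of 5000 bp or more had a median ratio of 0.179. With unscaled tags per kb the ratios were 0.539 to 1.02, so the Foxc1 gene pair was then marginally higher in Eed-/- cells.

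**Figure D3:**
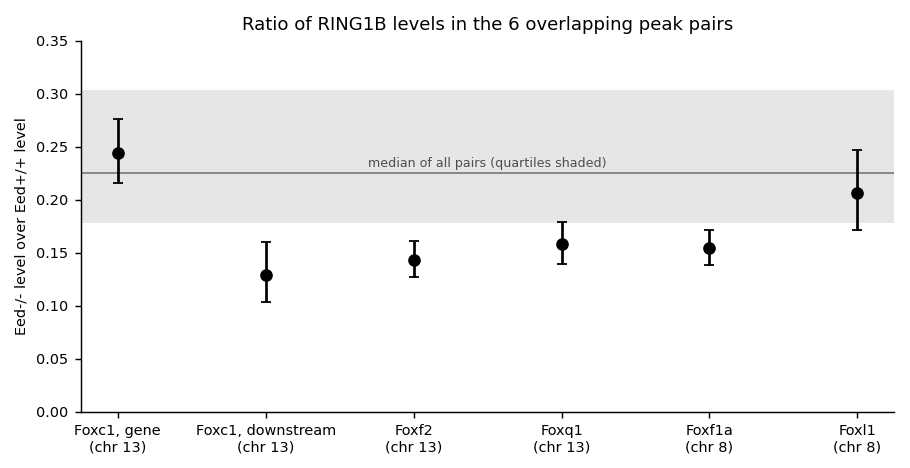
Ratio of the Eed-/- level to the Eed+/+ level on a linear y axis for the 6 overlapping peak pairs. Points are ratios, bars are exact 95% intervals of counting error, the line is the median of all 1247 pairs (0.225) and the shaded band their quartiles. The Foxc1 gene pair is the highest at 0.244 in tags per kb, whereas by fold enrichment Foxl1 is the highest (0.270) and by whole-peak tags the Foxc1 gene pair is the lowest (0.0557).

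The Eed-/- peaks were narrower at 5 of 6 positions, and their summits lay within 145 bp of those of the Eed+/+ peaks, with the widest gap at Foxl1. The Eed-/- peak lay wholly inside the Eed+/+ peak in 5 of 6 pairs (57.4% of all pairs), and was wider in 1 of 6, at Foxq1 (23.7% of all pairs). Among pairs with an Eed+/+ peak of 5000 bp or more, to which the Foxc1 gene, Foxf2, Foxf1a and Foxl1 belong, 85.1% lay wholly inside. The Eed-/- width divided by the Eed+/+ width was 0.228 at the Foxc1 gene, 0.307 at Foxl1, 0.427 at Foxf2, 0.475 at Foxf1a, 0.784 at the downstream Foxc1 peak and 1.05 at Foxq1, against a median of 0.833 over all pairs and 0.434 over pairs with an Eed+/+ peak of 5000 bp or more. The summits of the 2 genotypes lay 13 to 145 bp apart with a median of 53 bp, against a median of 97 bp over all pairs and 277 bp over pairs with an Eed+/+ peak of 5000 bp or more.

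Tags in called peaks were also summed per gene. The sums count tags inside peaks called separately in each genotype, so that Eed-/- tags outside a called peak are not counted and the thresholds bear on the ratios. The peaks covered 3798 bp in Eed-/- and 11347 bp in Eed+/+ cells at Foxc1, and 3446 bp in Eed-/- and 14811 bp in Eed+/+ cells at Foxf2. They covered 3575 bp in Eed-/- and 13156 bp in Eed+/+ cells at Foxf1a, 1582 bp in Eed-/- and 5150 bp in Eed+/+ cells at Foxl1, and, at Foxq1, 3956 bp in Eed-/- and 3766 bp in Eed+/+ cells. Tags summed over all peaks of a gene, per 1000000 mapped tags, were 6.37 in Eed-/- and 100.6 in Eed+/+ cells at Foxc1, and 5.10 in Eed-/- and 112.1 in Eed+/+ cells at Foxf2. They were 6.57 in Eed-/- and 112.1 in Eed+/+ cells at Foxf1a, and 2.17 in Eed-/- and 34.4 in Eed+/+ cells at Foxl1. Foxq1 had 6.26 in Eed-/- and 37.7 in Eed+/+ cells. The Eed-/- to Eed+/+ ratio of these sums over unequal lengths was 0.0455 to 0.0633 at Foxf2, Foxf1a, Foxl1 and Foxc1, and 0.166 at Foxq1. At Foxc2 the Eed+/+ sum was 74.8 and the Eed-/- list held no peak.

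The bases that kept an Eed-/- peak were richer in CpG than the rest of the same Eed+/+ peak in 6 of 6 peaks, as in 97.8% of all overlapped Eed+/+ peaks with bases outside. CpG per 100 bp was 6.47 to 10.9 inside the Eed-/- peaks and 1.27 to 3.49 in the Eed+/+ bases outside. The lowest outside values came from short stretches, 471 bp at the downstream Foxc1 peak (1.27) and 227 bp at Foxq1 (1.76). At the others the outside bases were 3568 to 7078 bp long, with 2.9 to 3.49 CpG per 100 bp. Over all such peaks the medians were 6.50 inside and 2.11 outside. At the Foxc1 gene the values were 10.9 inside and 3.49 outside. The 5 flanking Eed+/+ peaks without overlap had 2.27 to 3.99 CpG per 100 bp. The Foxc2 gene peak had 9.10, which is above 5 of the 6 values inside Eed-/- peaks.

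**Figure D4:**
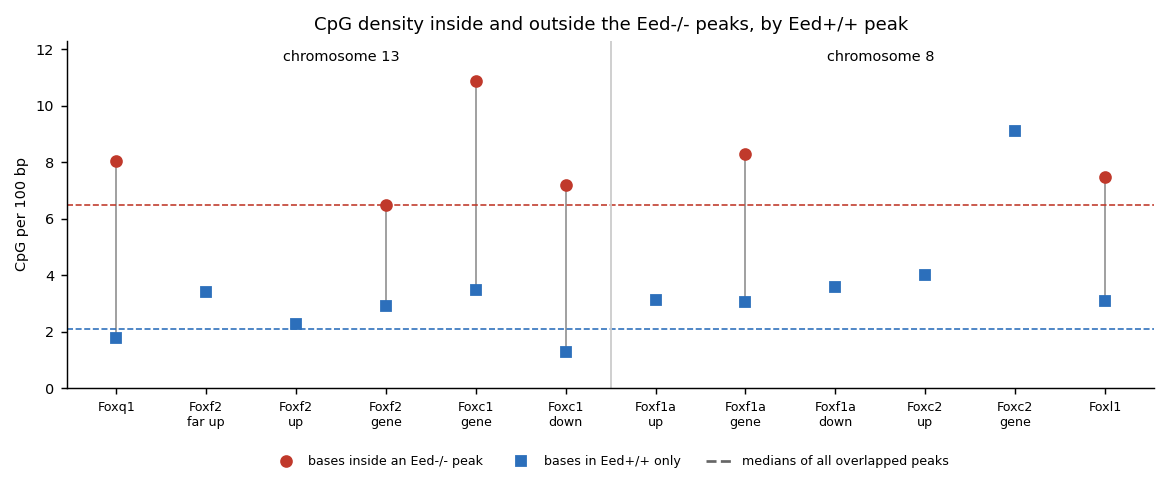
CpG per 100 bp (y axis) for each of the 12 Eed+/+ peaks (x axis), with red circles for bases inside an Eed-/- peak, blue squares for bases in Eed+/+ only, and dashed lines for the medians of all overlapped Eed+/+ peaks. Red circles lie at 6.47 or more and blue squares at 3.99 or less, except Foxc2 at 9.10.

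On chromosome 13, Eed-/- peaks touched 3 and Eed+/+ peaks 5 of 6 islands found. On chromosome 8, Eed-/- peaks touched 2 and Eed+/+ peaks 7 of 8 islands found. The islands with an Eed-/- peak were 1435 to 2582 bp long and lie at the starts of Foxc1, Foxf2, Foxq1, Foxf1a and Foxl1. Those with an Eed+/+ peak only were 207 to 447 bp long, except the Foxc2 island of 1981 bp with 11.4 CpG per 100 bp. An island was touched by 5 of 6 Eed-/- peaks (93.9% of all Eed-/- peaks) and 10 of 12 Eed+/+ peaks (93.3% of all Eed+/+ peaks). The downstream Foxc1 peaks, counted here as touching none, lie where the search can miss an island.

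The chromosome 13 cluster extended over 256149 bp and the chromosome 8 cluster over 57314 bp, from the first to the last peak or gene. In Eed-/- cells 4 peaks covered 11200 bp (4.37%) on chromosome 13 and 2 peaks covered 5157 bp (8.998%) on chromosome 8. In Eed+/+ cells 6 peaks covered 29924 bp (11.7%) on chromosome 13 and 6 peaks covered 23372 bp (40.8%) on chromosome 8. The share of Eed+/+ peaks overlapped by an Eed-/- peak was 66.7% (22.3 to 95.7%) on chromosome 13 and 33.3% (4.33 to 77.7%) on chromosome 8, and these intervals overlap. The peaks of a cluster are not independent, so the clusters were not tested against each other. No peak within either cluster carried the name of another gene.

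Median widths were 2767.5 bp on chromosome 13 and 2578.5 bp on chromosome 8 in Eed-/- cells, and 4173 bp on chromosome 13 and 2873 bp on chromosome 8 in Eed+/+ cells. Median levels were 1.53 on chromosome 13 and 1.61 on chromosome 8 in Eed-/- cells, and 8.44 on chromosome 13 and 6.23 on chromosome 8 in Eed+/+ cells. All tags divided by all covered bases gave 8.37 on chromosome 13 and 9.47 on chromosome 8 in Eed+/+ cells, which is the opposite order.

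By FDR the Eed-/- peaks lay nearer to the limit of the lists than the Eed+/+ peaks. By tags the lowest counts were close, at 120 in Eed-/- and 114 in Eed+/+ cells, with medians of 343.5 and 474. All 12 Eed+/+ peaks had an FDR of 0%, while those of the Eed-/- peaks were 0.62% at Foxq1, 0.76% at Foxf2, 0.77% at Foxf1a, 1.19% at Foxl1 and 1.61% at both Foxc1 peaks. The median FDR was 0.98% over these 6 Eed-/- peaks and 1.46% over all Eed-/- peaks. Over all Eed+/+ peaks it was 0%, so the contrast of the genotypes holds for the whole lists. At an FDR of 1% or less, Foxq1, Foxf2 and Foxf1a kept an Eed-/- peak and Foxc1 and Foxl1 did not. With Eed-/- tags reduced to the Eed+/+ depth, the peaks of Foxq1 and Foxf1a still exceeded 100 tags and the other 4 did not. By tags, Foxq1 ranked 95 and Foxf1a 72 of 1810 Eed-/- peaks. Before the reduction the median was 343.5 tags over these 6 peaks and 204 over all Eed-/- peaks, so most of that list also falls below this limit.

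Of 38 other forkhead genes, 14 had peaks in both genotypes, Foxj2, Foxo1 and Foxo3 in Eed-/- cells only, Foxa1 and Foxl2 in Eed+/+ cells only, and 19 in neither. Of their 23 Eed-/- peaks 19 (82.6%) were overlapped, against 73.1% of all Eed-/- peaks, and of their 33 Eed+/+ peaks 19 (57.6%), against 53.1% of all Eed+/+ peaks. Their 19 pairs had a median ratio of 0.148. The highest fold enrichments were at Foxb2 (7.69), Foxd1 (7.13) and Foxp2 (7.11) in Eed-/- cells, and at Foxa2 (70.95), Foxb2 (66.9) and Foxl2 (56.7) in Eed+/+ cells.

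Of 11 Hedgehog and mesenchyme genes, 4 had peaks in both genotypes and Bmp4 in Eed+/+ cells only. Of their 6 Eed-/- peaks 5 (83.3%) were overlapped, against 73.1% of all Eed-/- peaks. Of their 5 Eed+/+ peaks 4 (80.0%, 28.4 to 99.5%) were, against 53.1% of all Eed+/+ peaks. The ligand genes Shh, Ihh and Dhh had the highest fold enrichments, at 8.46, 5.73 and 5.12 in Eed-/- cells, and 45.4, 34.7 and 40.9 in Eed+/+ cells. Of 8 genes that act with the FOXC factors in vessels and the eye, 5 had peaks in both genotypes and Dll4 and Hey2 in Eed+/+ cells only. All 11 Eed-/- peaks of these genes were overlapped, against 73.1% of all Eed-/- peaks. Of their 18 Eed+/+ peaks 7 were (38.9%, 17.3 to 64.2%), against 53.1% of all Eed+/+ peaks. Nr2f2 and Tbx1 led that list, with fold enrichments of 9.91 and 7.99 in Eed-/- cells, and 68.4 and 41.8 in Eed+/+ cells.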

How the data were processed

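The authors aligned tags to mm9 using bowtie with unique matches only, and MACS peaks with an FDR under 2% and over 100 tags were deposited. Tool versions and the control given to MACS are unknown from the sources used here. The 2 deposited lists give, in 1 attribute column per peak, raw tag counts, a fold enrichment ratio, an FDR in percent, a score, the nearest gene and overlap flags of the authors' own comparisons, which were not used. The labels number the 3 Eed-/- and 3 input samples as replicates and the methods describe them as lanes.

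Peaks overlapped at 1 bp or more, and the Eed-/- peak sharing most bases with an Eed+/+ peak was its partner. Levels used the mapped tags given in the methods. The genome and annotation are NCBIM37 and GENCODE M1, the same build as mm9, and gene types were also looked up in RefSeq (symbols only). CpG islands came from a running score (17 for CG, -1 otherwise) and were kept from 200 bp in length, with 50% GC and observed over expected CpG of 0.6. Only the best-scoring stretch of each run was kept, so an island close behind a larger one can be missed. Intervals are exact and cover counting error only, and tags may include PCR copies. Those of shares take peaks as independent, which neighbouring peaks of a gene are not. The overlap code recovered 1000 of 1000 planted overlaps and the island search 100 of 100 planted islands, set far apart, in simulated data.

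The text names all peaks of the 6 genes, the neighbouring genes, up to 3 genes per list and genotype by fold enrichment, and genes with peaks in 1 genotype only. Some loci are not reported here. The genes and lists were chosen with earlier results of these data known. Python 3.11.15, numpy 2.4.6, scipy 1.17.1, numba 0.67.0 and matplotlib 3.10.9 were used.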

Additional observations from a re-analysis of the deposited data

How the results depend on the processing

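No paired analysis was possible because each genotype has 1 peak list. With overlap of 50% of both peaks, the overlapped share was 33.3% of Eed-/- and 16.7% of Eed+/+ peaks of the Fox genes, where most Eed-/- peaks are narrower. It was 16.7% of their Eed+/+ peaks when Eed-/- peaks had to exceed 100 tags at the Eed+/+ depth. The shares of all peaks under these rules are not given here, so the lower values cannot be read as a trait of the Fox genes. An FDR limit of 1% left 2 Eed-/- peaks on chromosome 13 and 1 on chromosome 8, where the median FDR of all Eed-/- peaks was 1.46%. Without scaling, median tags per kb were 107.7 on chromosome 13 and 113 on chromosome 8 in Eed-/- cells, and 142 and 105 in Eed+/+ cells, so the order of the genotypes turned on chromosome 8. The median ratio of levels was 0.653 without scaling, 0.171 with the authors' fold enrichment, and 0.0683 for depth-scaled tags of whole peaks, an alternative chosen after the data were seen. The other alternatives gave values within the spread of the peaks or the interval of the share. The depth gap between the genotypes, the peak thresholds and the 1 list per genotype limit these values, and a position with no Eed-/- peak is not shown to lack RING1B.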

Other observations

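No peak of either genotype lay on Mthfsd, which sits between Foxf1a and Foxc2 on the opposite strand, although a CpG island of 626 bp with 10.2 CpG per 100 bp covers its start. The nearest peaks were 9303 bp away in Eed-/- cells and 4246 bp away in Eed+/+ cells. Gmds, next to Foxc1, had none either, with the nearest peak 7388 bp away in Eed-/- cells and 7111 bp in Eed+/+ cells. Of the other neighbours Exoc2, Dusp22, Irf8, Fbxo31 and Cox4i1 had no peak, and Irf4 had 1 in Eed+/+ cells. Beyond each cluster the next Eed-/- peak was 989449 bp away or more on chromosome 13 and 840266 bp or more on chromosome 8.

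Eed+/+ peaks that lay under 1000 bp apart formed continuous stretches of 12684 bp at Foxf2, 12205 bp at Foxc1, 10991 bp at Foxf1a and 5317 bp at Foxc2, with gaps of 38, 858, 845 and 251 bp. The 2 Eed-/- peaks of Foxc1 were 1526 bp apart, and no other gene had more than 1 Eed-/- peak.

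Peak numbers in the lists run in order of position and skip values, up to 7523 for 1810 Eed-/- peaks and 7039 for 2347 Eed+/+ peaks. Between the Eed-/- peaks of Foxf1a and Foxl1, a gap of 41941 bp that holds Foxc2, 3 numbers were skipped, and 41.2% of neighbouring Eed-/- peaks on a chromosome have 3 or more skipped numbers between them. The positions and values behind those numbers were not analysed here.

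Of 1161 other genes with a peak pair, Nkx2-4, Mn1, En1, Ift80 and 1200009O22Rik were most like the Foxf1a pair, the one of highest Eed+/+ fold enrichment in the clusters, by distance in log2 ratio and log2 Eed+/+ level over the 2 lists. Their levels were 1.77 to 1.95 in Eed-/- and 11.5 to 12.1 in Eed+/+ cells, with ratios of 0.149 to 0.162. Of the pluripotency genes Pou5f1, Nanog, Sox2, Klf4, Esrrb and Zfp42, Esrrb had a peak within 5 kb, in both genotypes. By nearest-gene name, Sox2 also had 1 peak in Eed-/- cells and none in Eed+/+ cells, and the Eed-/- peak nearest to it lay 10288 bp away.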
